A study of Homo sapiens with 8 samples.

Results

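The STAT5 target genes examined here are 9 genes chosen by name: the kinase gene PIM1, the feedback inhibitor genes CISH, SOCS1, SOCS2 and SOCS3, the cytokine gene OSM, and the growth regulator genes BCL6, CCND2 and ID1. Each was located by a given start on GRCh37 (hg19), to the nearest kb, and every deposited H3K27me3 peak within 5 kb and within 25 kb of a start was taken. Of the peaks on the 24 main chromosomes, 4 of 104566 in AC220 1, 10 of 139642 in AC220 2, 5 of 104980 in DMSO 1 and 5 of 117556 in DMSO 2 lay within 25 kb of these 9 starts. MOLM14 is a human cell line from an acute myeloid leukaemia. Its FLT3 gene, which encodes a receptor kinase of blood progenitors, has an internal tandem duplication, and AC220 (quizartinib) is an inhibitor of the FLT3 kinase. The groups are MOLM14 cells given AC220 for 24 h and MOLM14 cells given its solvent DMSO for 24 h, with 2 immunoprecipitated libraries each, and Drosophila S2 cells were added to all of them before lysis. The 4 input samples of the series are not analysed here. All libraries are of a single cell line, and nothing in the labels says that those of the same treatment came from separate cultures, so their spread may be technical.

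STAT5 is a transcription factor that is phosphorylated by JAK kinases below cytokine receptors, and by mutant FLT3, then pairs up, enters the nucleus and binds DNA at TTCNNNGAA motifs. Its targets include genes that promote survival and division and genes of the SOCS family, whose proteins bind the receptor or its kinase and shut the signal down. H3K27me3, trimethylated lysine 27 of histone H3, is made by PRC2, an enzyme complex of the Polycomb group. It lies over genes that are kept silent and is normally absent from the starts of genes in active use.

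Promoter sequence shows which matches to the STAT5 motif lie at these gene starts. DNA outside the promoters was not searched, so a promoter without a match does not mean a gene without one. RefSeq promoters (GRCh38.p14, 250 bases before to 50 bases after a start) were at hand for 6 members, with 8 entries in all; OSM, SOCS2 and CCND2 have no entry in the table. The motif TTCNNNGAA, which reads the same on both strands, occurred 4 times in the CISH promoter and 4 times in the first of the BCL6 promoters, and in none of the other 6 entries. Of all 35116 promoters of this length 7.66% held it, and 7 (0.0199%) held it at least 4 times. The CISH and BCL6 promoters are printed with each match in capitals, and the PIM1 promoter, which has none, because in AC220 2 its start lay between 2 short peaks. In CISH the matches begin 241, 230, 129 and 112 bases before the start. In BCL6 they begin 28 and 5 bases before it and 10 and 36 bases after it.
CISH, chr3:50611725-50612024, minus strand: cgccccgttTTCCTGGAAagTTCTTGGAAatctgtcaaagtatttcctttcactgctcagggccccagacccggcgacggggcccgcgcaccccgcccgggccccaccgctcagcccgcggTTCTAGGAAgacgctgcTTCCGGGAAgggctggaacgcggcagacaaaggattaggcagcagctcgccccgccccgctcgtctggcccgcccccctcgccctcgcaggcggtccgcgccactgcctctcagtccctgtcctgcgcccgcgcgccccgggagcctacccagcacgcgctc
BCL6, chr3:187745419-187745718, minus strand: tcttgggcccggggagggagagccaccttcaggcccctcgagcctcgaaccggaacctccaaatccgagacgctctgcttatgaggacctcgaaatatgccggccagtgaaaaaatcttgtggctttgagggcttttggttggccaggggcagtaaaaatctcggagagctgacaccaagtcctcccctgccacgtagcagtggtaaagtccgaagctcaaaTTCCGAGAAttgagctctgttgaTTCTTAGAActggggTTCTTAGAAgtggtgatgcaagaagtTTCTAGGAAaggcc
PIM1, chr6:37169902-37170201, plus strand: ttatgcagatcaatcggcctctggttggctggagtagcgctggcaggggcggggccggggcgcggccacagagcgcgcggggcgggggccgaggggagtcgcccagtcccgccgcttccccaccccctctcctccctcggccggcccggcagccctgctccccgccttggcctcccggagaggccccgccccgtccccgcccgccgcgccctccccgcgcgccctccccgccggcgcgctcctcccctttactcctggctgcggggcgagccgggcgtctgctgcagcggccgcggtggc
These positions are on GRCh38.p14, whereas all peak positions are on GRCh37, so sequence and peaks were not aligned base by base. A match to the motif is a description of the letters and shows no binding. The 8 entries held 7 to 39 CpG dinucleotides, against a median of 14 for all promoters. PIM1 had 39, CISH and SOCS1 33 each, the SOCS3 entries 34 and 17, ID1 22, and the BCL6 entries 12 and 7. Of all promoters, 91.3% had fewer CpG than PIM1, 82.8% fewer than CISH or SOCS1, 84.4% and 54.0% fewer than the SOCS3 entries, 62.3% fewer than ID1, and 46.9% and 36.8% fewer than the BCL6 entries. Apart from BCL6, every entry was thus above the median of all promoters. As background, PRC2 in mammals is often found at CpG-rich promoters of silent genes.

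The starts of these genes lay outside H3K27me3 peaks in all 4 libraries. No start of the 9 was inside a peak in any library, with AC220 or with DMSO. Most centres of the 303618 tiles of 10 kb over the autosomes and X also lay uncovered between peaks. They numbered 275308 in AC220 1 and 245331 in AC220 2, against 271181 in DMSO 1 and 235753 in DMSO 2. An uncovered start is thus not particular to these genes. CISH, SOCS1, SOCS2, OSM and BCL6 had no peak within 5 kb in any library. CISH, SOCS1, SOCS2 and BCL6 had none within 25 kb. CCND2 alone had peaks within 5 kb in all 4 libraries (1 of 9, beside 19.6% of 10 kb tiles), and CCND2 and OSM had them within 25 kb (2 of 9, beside 36.1% of 50 kb tiles). PIM1, SOCS3 and ID1 had short peaks, in libraries numbered 2 alone. The count of 5 of 9 genes without a peak within 5 kb stands beside 58.8% of 303618 tiles of 10 kb that cover the autosomes and X, and 4 of 9 within 25 kb beside 41.5% of 60716 tiles of 50 kb. Both counts are near that background, so freedom from peaks is not particular to these genes. Tiles include stretches of the assembly to which reads cannot be mapped.

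**Figure D1:**
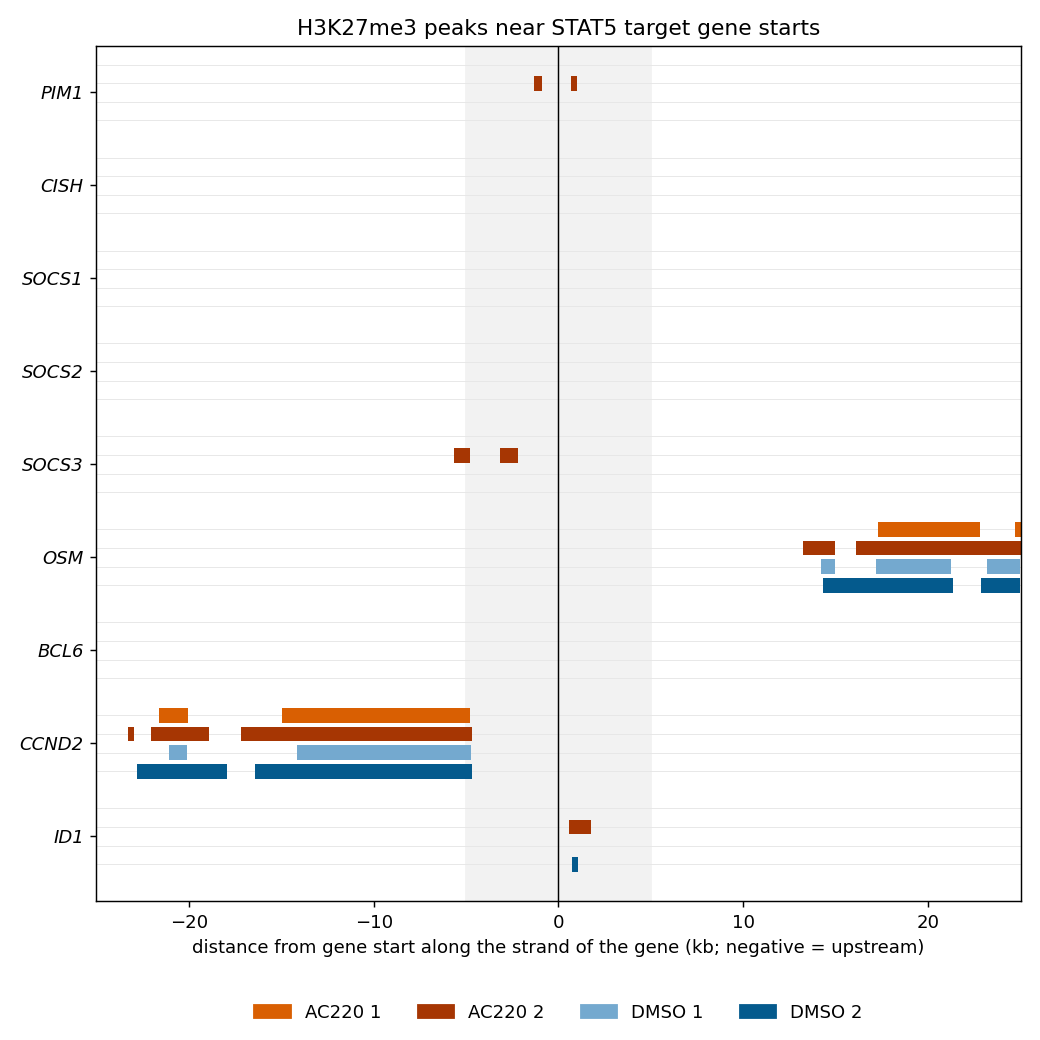
Deposited H3K27me3 peaks (bars) within 25 kb of each gene start, drawn along the strand of the gene in kb, with rows for AC220 1, AC220 2, DMSO 1 and DMSO 2 from top to bottom and the 5 kb window shaded. CCND2 has a domain upstream and OSM peaks downstream in all 4 libraries, while CISH, SOCS1, SOCS2 and BCL6 have no peak.

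For each library the covered share of a window was computed, that is, how much of the window lay inside peaks, in percent of bases. Within 5 kb the mean covered share of the 9 genes was 0.257% in AC220 1 and 3.75% in AC220 2, against 0.30% in DMSO 1 and 0.679% in DMSO 2. The mean over all 10 kb tiles was 6.32% and 16.3% in AC220 1 and AC220 2, against 7.63% and 19.4% in DMSO 1 and DMSO 2. The median over the 9 genes was 0% in each library, as it was over the tiles. Set 1 means AC220 1 and DMSO 1, and set 2 means AC220 2 and DMSO 2. The lists of set 2 covered more of the genome under either treatment (497 Mb in AC220 2 and 591 Mb in DMSO 2, against 192 Mb in AC220 1 and 232 Mb in DMSO 1), so treatments were compared within each set. Within each set the AC220 list covered less than the DMSO list, so list length differed by treatment too. Covered shares were not scaled here to the added Drosophila cells.

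No gene of the 9 had a covered share that differed in the same direction in both sets, at 5 kb or at 25 kb. In set 1 only CCND2 had any coverage within 5 kb, and only CCND2 and OSM within 25 kb. The other genes were tied at 0% in set 1, so this rule could not call them. Over the tiles of 10 kb, a common direction in both sets was found as lower with AC220 in 10.9% and as higher in 3.45%, and over the tiles of 50 kb 23.1% and 5.54%. No gene passed the separation rule, which asks that every AC220 share lie at least 25 percentage points from every DMSO share on the same side. Within 5 kb none could have passed, since the highest share of any gene was 11.7% (AC220 2). Within 25 kb CCND2 alone had a share above 25% in any library. Of the 10 kb tiles 0.00725% passed it as lower and 0.00132% as higher, and of the 50 kb tiles 0% passed in either direction. Over the 4 libraries, an exact permutation test (two-sided) of AC220 against DMSO gave p = 1 for each of the 9 genes in both windows, and with 2 libraries against 2 it cannot give a p below 0.333. At CCND2 within 5 kb and 25 kb, and at OSM within 25 kb, the covered share as reported therefore showed no direction common to both sets. This does not extend to other measures or settings, such as the width of the CCND2 peak given below. The other genes could not have shown one by this rule, and a test this small could not have called any.

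**Figure D2:**
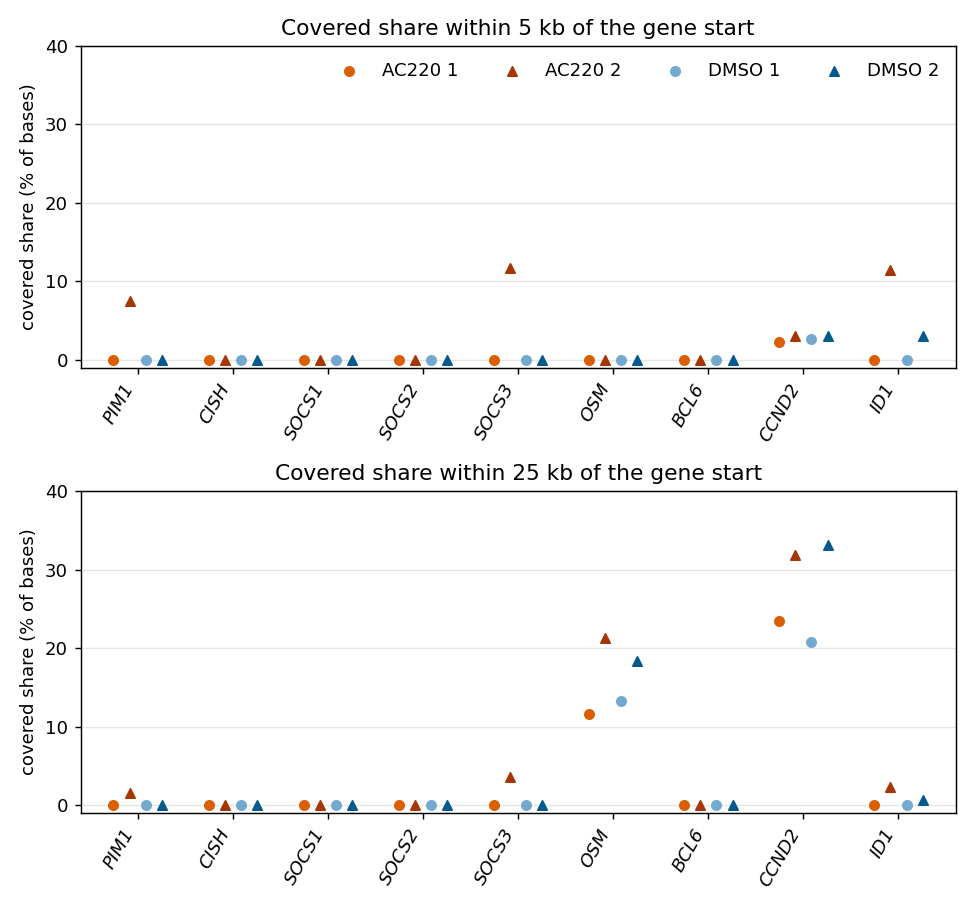
Covered share (% of bases) within 5 kb and within 25 kb of each start, a point per library, with circles for set 1 and triangles for set 2. Within 25 kb, CCND2 and OSM stand above the other genes in every library, and the sets differ more than the treatments.

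CCND2 encodes cyclin D2, which drives cells from G1 into S phase. Its start (chromosome 12, near 4383 kb) had the nearest wide domain of the 9 genes. The domain lay upstream and ended 4.77 kb and 4.69 kb short of the start in AC220 1 and AC220 2, against 4.73 kb and 4.70 kb in DMSO 1 and DMSO 2. The 4 edges fell within 75 bp of each other, at positions 4378231 and 4378306 with AC220 and 4378270 and 4378300 with DMSO. The peak that ends there was 10.2 kb and 12.5 kb wide in AC220 1 and AC220 2, against 9.44 kb and 11.7 kb in DMSO 1 and DMSO 2. Within each set it was wider with AC220, through its outer edge. It ranked high in every list: 95.03% and 98.8% of the peaks of AC220 1 and AC220 2 had a lower q score, against 91.6% and 99.4% of those of DMSO 1 and DMSO 2. Its fold enrichment, as given in the authors' lists, was 3.24 and 3.16 with AC220, and 3.27 and 3.70 with DMSO. A smaller island of peaks lay further upstream, with its main peak 20.03 kb from the start in AC220 1 and 18.9 kb in AC220 2, against 20.1 kb in DMSO 1 and 17.95 kb in DMSO 2.

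Within 25 kb of the CCND2 start the covered share was 23.5% and 31.9% in AC220 1 and AC220 2, against 20.8% and 33.2% in DMSO 1 and DMSO 2. The AC220 library was higher in set 1 and lower in set 2, and the treatments overlapped. The means were 27.7% ± 5.93 with AC220 and 26.999% ± 8.78 with DMSO (SD, n = 2 each; exact permutation p = 1). Within 10 kb the 4 libraries were close together, at 26.2% and 26.5% with AC220 and 26.4% and 26.5% with DMSO. This restates the closeness of the peak edges given above, since in each library the peak covered the whole upstream window beyond its edge. All of this coverage was on the upstream side: it was 47.0% and 63.8% of the 25 kb upstream in AC220 1 and AC220 2, against 41.6% and 66.4% in DMSO 1 and DMSO 2, and 0% of the 25 kb downstream in each. The next peak on the gene's own side began 89.0 kb and 87.2 kb downstream in AC220 1 and AC220 2, against 90.9 kb and 88.7 kb in DMSO 1 and DMSO 2. In RefSeq (GRCh38.p14) the antisense RNA gene CCND2-AS1 overlaps the start of CCND2 and extends upstream, and TIGAR is the next protein-coding gene downstream. The domain was not assigned to either.

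OSM encodes oncostatin M, a cytokine of the interleukin 6 family that signals through JAK kinases. Its start (chromosome 22, near 30662 kb) had no peak within 10 kb in any library, and the peaks within 25 kb lay downstream, beyond the end of the gene. The nearest began 17.3 kb and 13.2 kb from the start in AC220 1 and AC220 2, against 14.2 kb and 14.3 kb in DMSO 1 and DMSO 2. The covered share within 25 kb was 11.6% and 21.3% in AC220 1 and AC220 2, against 13.3% and 18.3% in DMSO 1 and DMSO 2. AC220 was the lower library in set 1 and the higher in set 2, with means of 16.4% ± 6.84 for AC220 and 15.8% ± 3.52 for DMSO (SD, n = 2 each; exact permutation p = 1). The 25 kb upstream of OSM held no peak. The same stretch of peaks extended over the start of the neighbouring gene LIF, which encodes leukaemia inhibitory factor, a cytokine of the same family. That start was inside a peak in all 4 libraries. It had 55.1% and 88.8% of the bases within 5 kb covered in AC220 1 and AC220 2, against 56.7% and 81.5% in DMSO 1 and DMSO 2. In AC220 2 it was part of a peak of 32.1 kb (chromosome 22, 30613796 to 30645903), of which the part nearest to OSM ended 16.1 kb from its start. In DMSO 2 the corresponding stretch was split into peaks of 29.7 kb (30609415 to 30639114) and 7.04 kb (30640668 to 30647707). Of these 2 adjacent cytokine genes, LIF thus had a covered start and OSM did not, under both treatments.

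The kinase PIM1 promotes the survival of haematopoietic cells. Its start (chromosome 6, near 37138 kb) had a covered share within 5 kb of 0% and 7.45% in AC220 1 and AC220 2, against 0% and 0% in DMSO 1 and DMSO 2. In AC220 2 the signal came from 2 short peaks on either side of the start. The upstream peak was 422 bp wide (37136702 to 37137123) and ended 0.877 kb before the start, and the downstream peak was 323 bp wide (37138656 to 37138978) and began 0.655 kb after it. In their list 48.5% and 70.7% of peaks had a lower q score, and 11.04% and 6.30% were narrower. In the other libraries PIM1 lay in a peak-free stretch of 347 kb in AC220 1, 347 kb in DMSO 1 and 345 kb in DMSO 2. These were longer than the stretch around 51.6%, 53.1% and 66.7% of the uncovered tile centres of those libraries. For the windows of 10 kb, 2.4% of tiles had no peak in DMSO 2 and some coverage in AC220 2; 2 of the 9 genes, PIM1 and SOCS3, were of that kind.

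CISH, SOCS1 and SOCS2 had no peak within 25 kb in any library, and SOCS3 had short peaks in AC220 2 alone. These genes encode inhibitors that act on cytokine receptors and JAK kinases. CISH (chromosome 3, near 50649 kb) had its nearest peak 44.1 kb and 43.9 kb downstream in AC220 1 and AC220 2, against 44.0 kb and 43.8 kb in DMSO 1 and DMSO 2. The distances differed by less than 0.3 kb, so the edge of the mark on that side was in nearly the same place in all libraries. SOCS1 (chromosome 16, near 11350 kb) had no peak within 100 kb in any library. Its nearest peak was 148 kb and 147 kb upstream in AC220 1 and AC220 2, against 528 kb and 469 kb downstream in DMSO 1 and DMSO 2. The peak-free stretch around SOCS1 was 622 kb and 595 kb with AC220, against 1202 kb and 1028 kb with DMSO. It was longer than the stretch around 65.6% and 79.7% of the uncovered tile centres in AC220 1 and AC220 2, and around 81.1% and 88.4% of those in DMSO 1 and DMSO 2. In RefSeq the neighbours of SOCS1 on its upstream side are the sperm chromatin genes TNP2, PRM3, PRM2 and PRM1. Within 250 kb of the SOCS1 start the covered share was 0.0404% and 0.370% in AC220 1 and AC220 2, against 0% and 0% in DMSO 1 and DMSO 2. The exact permutation test gave p = 0.333, the smallest possible here. The SOCS1 contrast thus rests on very little coverage, and no share over tiles is given beside it.

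SOCS2 (chromosome 12, near 93964 kb) had its nearest peak 207 kb and 68.1 kb away in AC220 1 and AC220 2, against 68.7 kb and 434 kb in DMSO 1 and DMSO 2. No order by treatment appears in these distances to the nearest peak. The peak-free stretch around SOCS2 was 730 kb and 561 kb with AC220, against 871 kb and 970 kb with DMSO. Both AC220 stretches were thus shorter than both DMSO stretches, as at SOCS1. Within 250 kb SOCS2 had 0.077% and 0.187% covered in AC220 1 and AC220 2, against 0.0704% and 0% in DMSO 1 and DMSO 2. The exact permutation test gave p = 0.333, the smallest possible here. This too rests on very little coverage, and no share over tiles is given beside it. SOCS3 (chromosome 17, near 76356 kb) had a covered share within 5 kb of 0% and 11.7% in AC220 1 and AC220 2, against 0% and 0% in DMSO 1 and DMSO 2. In AC220 2 this came from peaks of 983 bp (76358202 to 76359184) and 826 bp (76360812 to 76361637), 2.20 kb and 4.81 kb upstream of the start. They were among the weakest of their list, in which 3.68% and 1.83% of peaks had a lower q score. With peaks of at least 2 in -log10 q, SOCS3 had no coverage within 25 kb in any library. Its nearest peak in the other libraries was 86.0 kb away in AC220 1, against 86.3 kb in DMSO 1 and 46.3 kb in DMSO 2.

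**Figure D3:**
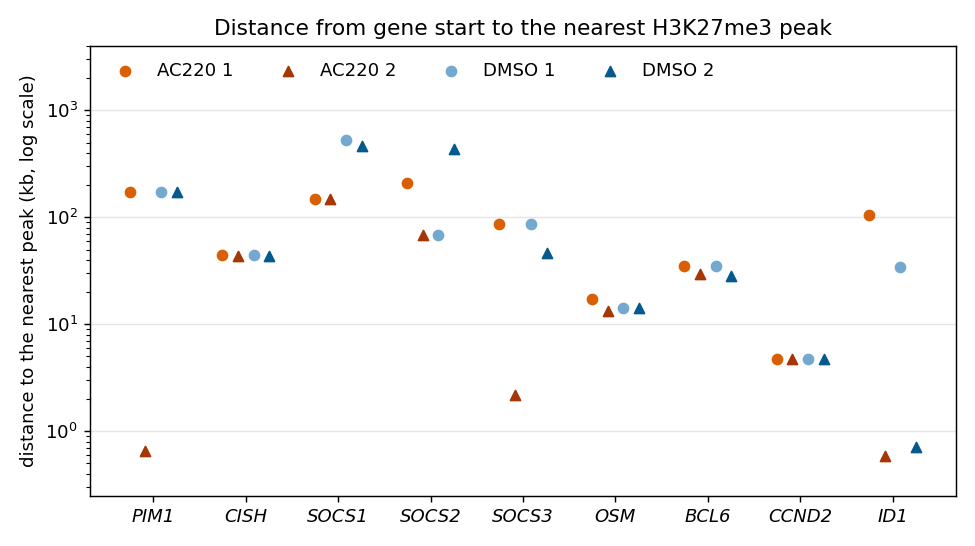
Distance in kb (log scale) from each gene start to the nearest H3K27me3 peak, a point per library, with circles for set 1 and triangles for set 2. CCND2 has a peak 4.69 to 4.77 kb away in all 4 libraries, whereas at PIM1 the AC220 2 library alone has a peak within 1 kb.

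ID1 encodes an inhibitor of basic helix-loop-helix transcription factors. Its start (chromosome 20, near 30193 kb) had a covered share within 5 kb of 0% and 11.5% in AC220 1 and AC220 2, against 0% and 3.11% in DMSO 1 and DMSO 2. The mark was called in set 2 alone, under both treatments. The AC220 2 peak was 1152 bp wide (30193584 to 30194735) and the DMSO 2 peak 311 bp (30193720 to 30194030), so the DMSO 2 peak lay inside the interval of the other. The wider peak had the lower standing: 26.1% of the AC220 2 list had a lower q score, and 75.6% of the DMSO 2 list. With peaks of at least 2 in -log10 q the direction in set 2 turned, with 0% within 25 kb in AC220 2 against 0.622% in DMSO 2. The gene body of ID1 is short, and RefSeq places the microRNA gene MIR3193 just downstream.

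BCL6 encodes a transcriptional repressor that germinal centre B cells need. Its start (chromosome 3, near 187463 kb) had no peak within 25 kb in any library. The nearest was 35.1 kb and 29.5 kb away in AC220 1 and AC220 2, against 34.9 kb and 28.1 kb in DMSO 1 and DMSO 2, and lay downstream in each. Within 50 kb the covered share was 1.26% and 4.70% in AC220 1 and AC220 2, against 4.32% and 10.8% in DMSO 1 and DMSO 2, lower with AC220 in both sets, although AC220 2 was above DMSO 1 (exact permutation p = 0.667). At that distance CISH and OSM were higher with AC220 in both sets, and the other 6 genes had no common direction. These counts of 1 lower and 2 higher of 9 stand beside 30% of 30353 tiles of 100 kb that were lower with AC220 in each set and 6.9% that were higher. Within 100 kb it was 11.7% and 27.2% with AC220, against 14.3% and 29.8% with DMSO. RefSeq lists RTP2, an olfactory receptor transport gene, and SST, the gene of the hormone somatostatin, on the downstream side of BCL6.

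Coverage was 0% at 5 kb and higher at 50 kb and beyond for CISH, BCL6 and OSM, and stayed near 0 at SOCS1 and SOCS2. Within 100 kb, CISH had 27.6% and 42.3% covered in AC220 1 and AC220 2, against 23.8% and 39.2% in DMSO 1 and DMSO 2, above the mean of the 200 kb tiles in each library (6.32% and 16.3% with AC220, 7.63% and 19.4% with DMSO). CISH was thus a gap in well-covered surroundings, with a peak-free stretch of 100 kb in AC220 1 and 99.8 kb in AC220 2, against 105 kb in DMSO 1 and 99.2 kb in DMSO 2. Within 100 kb SOCS2 had 0% and 0.469% covered in AC220 1 and AC220 2, against 0.176% and 0% in DMSO 1 and DMSO 2. At that distance CISH and SOCS3 were higher with AC220 in both sets, BCL6 and CCND2 were lower, and the other 5 genes had no common direction. Of 15169 tiles of 200 kb, 37.4% had the lower share with AC220 in each set and 9.02% the higher. Windows of this size hold several other genes.

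**Figure D4:**
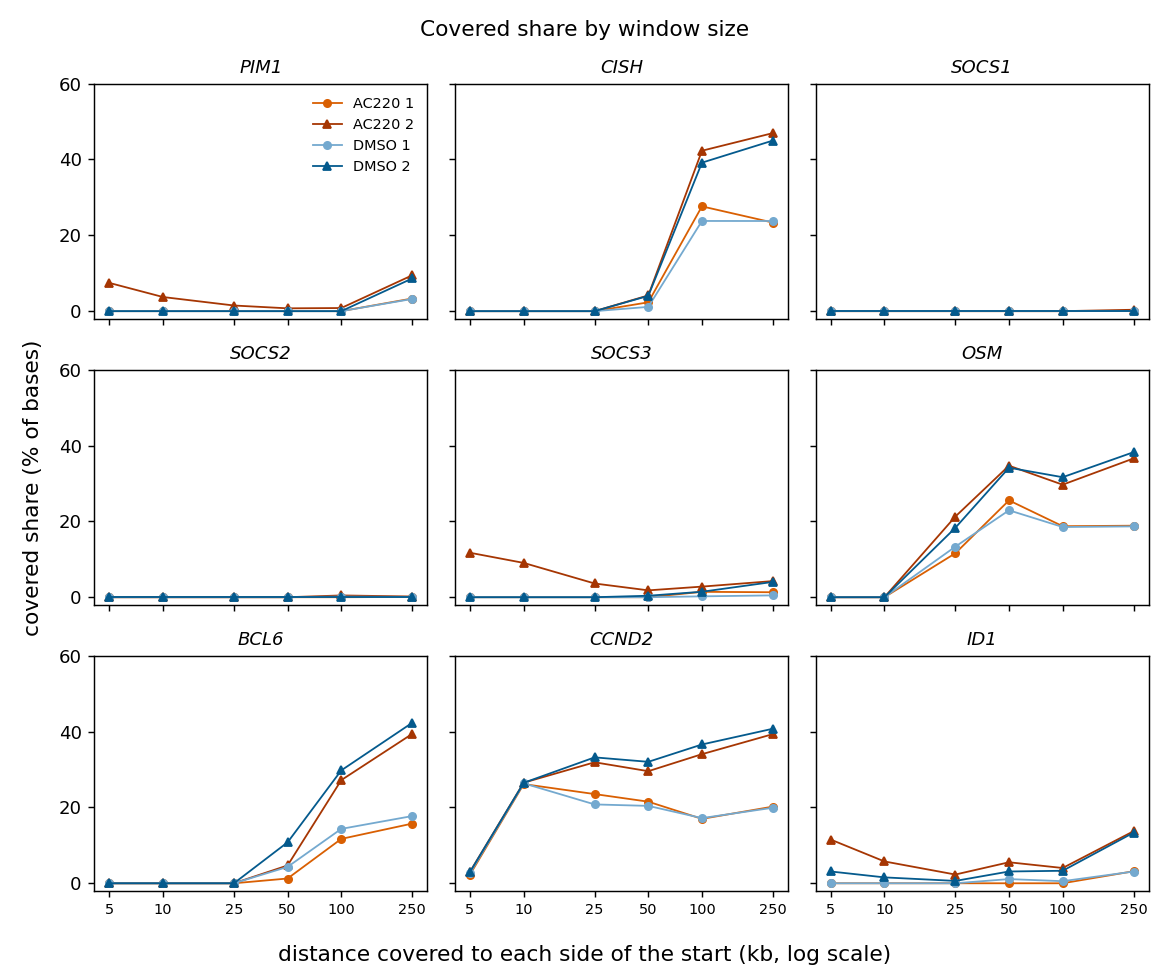
Covered share (% of bases) against the distance taken to each side of the start (kb, log scale), a line per library, with circles for set 1 and triangles for set 2. CISH and BCL6 are at 0% up to 25 kb and reach 11.7% to 42.3% at 100 kb, while SOCS1 is at 0% up to 100 kb in every library.

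Other genes of the pathway, a list of 24 that took in STAT and JAK genes and further members of the PIM, SOCS, cyclin D, ID and BCL2 families, were measured in the same way. Within 5 kb, 18 of 24 had no peak in any library (75.0%, beside 58.8% of the 10 kb tiles), among them STAT5A, STAT5B, STAT3, JAK1, JAK2, PIM2, PIM3, SOCS4, SOCS5, SOCS6, SOCS7, BCL2L1 and MCL1. Of the 24, AC220 gave the lower share in both sets in 1 (4.17%, beside 10.9% of the 10 kb tiles) and the higher in 0 (beside 3.45%), and none passed the separation rule. The share that was lower is no more than that background. The gene is ID4, a relative of ID1, with 4.34% and 42.4% in AC220 1 and AC220 2, against 23.6% and 68.3% in DMSO 1 and DMSO 2. AC220 2 was above DMSO 1, so the treatments overlapped (exact permutation p = 0.667). Within 2 kb the direction of ID4 turned in set 1, with 10.9% and 23.2% in AC220 1 and AC220 2, against 0% and 24.5% in DMSO 1 and DMSO 2. CCND1, ID3, ID4 and LIF had some coverage within 5 kb in all 4 libraries. CCND1, the cyclin D1 gene, had 39.9% and 56.9% in AC220 1 and AC220 2, against 35.1% and 58.9% in DMSO 1 and DMSO 2. ID3 had 63.7% and 100% in AC220 1 and AC220 2, against 25.03% and 100% in DMSO 1 and DMSO 2. The D cyclins and the ID genes thus had covered and uncovered members side by side: CCND3 and ID2 had no peak within 5 kb. JAK3 and IL2RA had coverage within 5 kb in set 2 alone. JAK3 had 0% and 11.1% in AC220 1 and AC220 2, against 0% and 0% in DMSO 1 and DMSO 2. IL2RA, the gene of an interleukin 2 receptor chain, had 0% and 31.45% in AC220 1 and AC220 2, against 0% and 18.97% in DMSO 1 and DMSO 2. Within 25 kb, 12 of 24 had no peak in any library (beside 41.5% of the 50 kb tiles). Of the 24, 3 (SOCS5, CCND1 and ID4) were lower with AC220 in each set (12.5%, beside 23.1%), and 4 (STAT3, JAK3, SOCS7 and LIF) were higher (16.7%, beside 5.54%). SOCS7 had 10.2% and 18.6% in AC220 1 and AC220 2, against 6.996% and 13.7% in DMSO 1 and DMSO 2, and JAK3 had 7.94% and 21.6% in AC220 1 and AC220 2, against 6.33% and 17.3% in DMSO 1 and DMSO 2. STAT3 had 0.936% and 6.004% in AC220 1 and AC220 2, against 0.466% and 0% in DMSO 1 and DMSO 2, and LIF had 41.5% and 59.3% in AC220 1 and AC220 2, against 36.0% and 56.3% in DMSO 1 and DMSO 2. Of these 4 genes STAT3 alone had treatments that did not overlap (exact permutation p = 0.333, the smallest possible here, against 0.667 for the other 3). LIF is named because its start was covered in all 4 libraries, and the other genes of this list were named after their values were seen.

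Genes at the ends of the scale show what the lists call. The housekeeping genes ACTB and GAPDH, the myeloid factor gene SPI1, the myeloid surface gene CD33 and FLT3 had 0% within 5 kb in every library, as did CISH, SOCS1, SOCS2, OSM and BCL6. Their expression was not measured here, and 58.8% of the 10 kb tiles were at 0% too. The developmental genes PAX2, HOXD13 and TBX5 had 100% in every library. A peak list from a mixed culture does not tell a mark in few cells from a weak mark in many, and a start without a peak may hold mark below the level that was called.

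**Figure D5:**
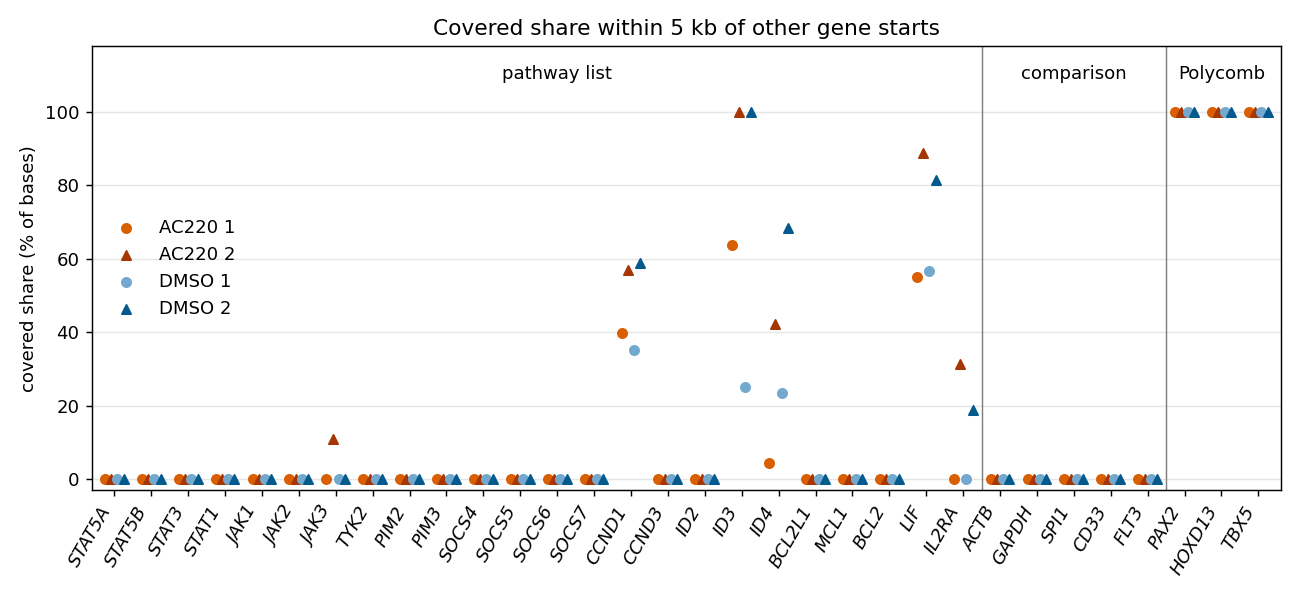
Covered share (% of bases) within 5 kb of the starts of the 24 pathway genes, 5 comparison genes (ACTB, GAPDH, SPI1, CD33 and FLT3) and 3 developmental Polycomb genes, a point per library, with circles for set 1 and triangles for set 2. Of the pathway genes 18 are at 0% in every library, as are the 5 comparison genes, while CCND1, ID3, ID4 and LIF have coverage in all 4 libraries and PAX2, HOXD13 and TBX5 are at 100%.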

How the data were processed

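H3K27me3 immunoprecipitated DNA of 2 AC220 and 2 DMSO libraries was used. The submitters' processing notes name the tools BWA 0.7.10-r789 and MACS2 2.1 but give no settings. Each library has its own deposited list of broad peaks, called by the authors per library. Deposited columns are positions in bp, a score, the fold enrichment as a ratio over background, and p and q as -log10. Without the settings it is unknown whether an input served as that background. Fold and q describe or filter peaks within a list. The lists hold no read counts, so depth is unknown and no interval is given. For the genome build, not given in the sources used here, peak ends were compared with GRCh37 lengths and lay within them (circlize 0.4.16). Positions count from 1.

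The members and all lists were chosen with earlier results of these data known. Members are named in full; pathway genes are named by a rule of a covered start in all 4 libraries or a difference of at least 25 points in both sets, with exceptions stated. Member starts were given to the nearest kb; starts of pathway and scale genes are GRCh37 positions from general knowledge, checked for chromosome against RefSeq (41 of 41 genes matched, members included). Strands of OSM, SOCS2 and CCND2 are from general knowledge.

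Covered shares were computed in Python 3.11.15 (numpy 2.4.6, pandas 2.3.3), and the coverage and separation rules were tested on simulated peak lists. Libraries were paired by number as the rule for these genes asks, although the labels do not say what a number shares. Inputs were not analysed here. Figures were drawn with matplotlib 3.10.9.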

Additional observations from a re-analysis of the deposited data

How the results depend on the processing

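Counts of genes with a common direction in both sets were 0 as reported and stayed at 0 with peaks of at least 2 or at least 5 in -log10 q, with the longer list of each set trimmed to the shorter, with peaks counted only when at least 50% of their length lay inside, with starts moved by 1 kb either way, with windows of 2 or 10 kb in place of 5 kb, and without peaks under 1 kb, a setting chosen after seeing the data. In set 1 as reported, only CCND2 and, within 25 kb, OSM had coverage, so few genes could have been counted. With all lists trimmed to the shortest, 1 gene (OSM) was lower with AC220 within 25 kb. With peaks less than 1 kb apart joined, 1 gene (CCND2) was higher within 25 kb. With 50 kb in place of 25 kb, 1 (BCL6) was lower and 2 (CISH and OSM) were higher, beside 30% and 6.9% of 100 kb tiles. With no replicate block, by group means and without pairing the numbers, 1 gene was lower and 3 were higher within 5 kb, and 5 were higher and 0 lower within 25 kb; the labels do not say that a number marks a shared batch, and deviations of same-numbered libraries from their treatment means had r = 0.78 over 303618 tiles of 10 kb, as a description. Leaving out a set or a single library gave 0 to 2 lower and 0 to 4 higher genes within 5 kb, and 0 to 3 lower and 0 to 5 higher within 25 kb. Without AC220 2 no gene was higher in either window, and 2 were lower within 5 kb and 3 within 25 kb. For the counts by group means and those with libraries left out, no share over tiles is given. They therefore have no background and are not read as a result about these genes. The separation rule called 0 genes under every setting run, but within 5 kb as reported no share reached 25%, so it could call none there. The cause of these changes was not tested. A PIM1 and SOCS3 difference rests on the AC220 2 list alone: it was 0 points without that library and also without peaks under 1 kb.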
